A study of Mus musculus with 12 samples.

Results

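The genes described here make cholesterol and its precursors, sense sterol, and build and desaturate fatty acids in the mouse spinal cord. They were taken by name from a list of 34 symbols that stand for 33 genes, of which 32 were found in the deposited gene table of 37991 genes. Counts were present for 31 of these 32 genes, and all 31 passed the filter on low counts. Hmgcs1, the synthase that makes the precursor of mevalonate, is listed under 2 identifiers (ENSMUSG00000079301 and ENSMUSG00000079828) at 0 in every library, so it was not measured by these files and nothing is said of its level. Mvd, the decarboxylase that ends the mevalonate steps, has counts (ENSMUSG00000006517) but no symbol in the authors' FPKM table, and is given apart from the 31.

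Cells make cholesterol from acetyl-CoA through mevalonate, farnesyl diphosphate, squalene and lanosterol. When sterol in the endoplasmic reticulum is low, INSIG proteins let go of the escort protein SCAP, which carries the SREBP transcription factors. The SREBPs then raise the genes of sterol and fatty acid synthesis. The adult nervous system makes its own cholesterol, most of which lies in myelin, since plasma lipoproteins do not cross the blood-brain barrier.

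RNA was sequenced from spinal cord tissue of 12 adult mice (over 8 weeks old), 4 in each of 3 groups, all on a C57bl/6J background and all carrying Glast-CreERT2, R26R-YFP and Rasless alleles. SCI Tam mice had tamoxifen (2 mg daily for 5 days), 7 clearing days, and a dorsal hemisection at high thoracic level; SCI Veh mice had the solvent and the same injury, and both kinds of lesion were taken 14 days after it. Uninjured mice also had the solvent and gave a cord segment without a lesion. Cre is driven by the promoter of Glast (Slc1a3), which in this line serves to reach type A pericytes and which is also a gene of astrocytes, and the series describes the vehicle lesions as dense and the tamoxifen lesions as having less pericyte-derived scar. Each library is named by its mouse number, and values run in the order 452, 513, 549 and 564 for SCI Tam, 402, 428, 429 and 457 for SCI Veh, and 376, 377, 385 and 467 for uninjured mice.

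Total counts ran from 7967970 to 12581324 per library. All 4 SCI Tam mice were female by their Y-linked counts, against 1 of the 4 SCI Veh mice (429) and 3 of the 4 uninjured mice (all but 467). The sample names of 3 SCI Tam libraries (513, 549 and 564) were 106 to 108 and those of all other libraries were 20 or below. Skeletal muscle transcripts were high in SCI Veh libraries 402, 429 and 457 and in uninjured libraries 377 and 385. The neuronal gene Snap25 averaged 1695 CPM (counts scaled to library size, with TMM normalisation) in SCI Tam, 1321 CPM in SCI Veh and 2121 CPM in uninjured libraries. Of 12 neuron markers that include Snap25, only 1, Tubb3, was called higher in SCI Tam than in SCI Veh lesions by edgeR. Snap25 was thus not called in that comparison. The Ras genes Hras1 and Nras were counted in every group: Hras1 ranged over 13.7 to 17.3 CPM in SCI Tam, 14.0 to 16.8 CPM in SCI Veh and 14.2 to 20.7 CPM in uninjured libraries. Nras ranged over 14.7 to 20.5 CPM in SCI Tam, 14.4 to 23.4 CPM in SCI Veh and 9.08 to 15.0 CPM in uninjured libraries, and rose in both lesion groups over uninjured cord (log2 change 0.53 for SCI Tam and 0.56 for SCI Veh, edgeR adjusted p = 0.0304 and 0.0212). Whole tissue counts of these genes do not test recombination in the Glast-expressing cells.

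The promoters of these genes are shown because SREBPs act on DNA together with the factors NF-Y, which binds CCAAT, and Sp1, which binds GC boxes. The 250 bases before the start site are given from RefSeq (mouse build GRCm38.p6) for 4 genes that fell after injury, Insig1, Idi1, Msmo1 and Cyp51, and for Srebf1, which rose. All are written 5′ to 3′ along the gene, with CCAAT and GGGCGG, or their reverse complements ATTGG and CCGCCC, in capitals.
Insig1, chr5:28071162-28071411, plus strand: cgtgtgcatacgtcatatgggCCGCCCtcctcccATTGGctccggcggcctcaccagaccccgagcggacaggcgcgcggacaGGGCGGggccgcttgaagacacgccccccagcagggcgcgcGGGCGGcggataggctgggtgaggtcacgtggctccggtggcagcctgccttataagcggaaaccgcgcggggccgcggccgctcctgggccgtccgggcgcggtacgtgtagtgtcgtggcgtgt
Idi1, chr13:8885356-8885605, plus strand: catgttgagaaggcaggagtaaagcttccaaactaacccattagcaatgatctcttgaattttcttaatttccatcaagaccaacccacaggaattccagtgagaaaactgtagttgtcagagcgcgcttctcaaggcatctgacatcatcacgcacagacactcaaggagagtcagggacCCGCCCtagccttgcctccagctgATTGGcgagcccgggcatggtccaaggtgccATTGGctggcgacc
Msmo1, chr8:64733579-64733828, minus strand: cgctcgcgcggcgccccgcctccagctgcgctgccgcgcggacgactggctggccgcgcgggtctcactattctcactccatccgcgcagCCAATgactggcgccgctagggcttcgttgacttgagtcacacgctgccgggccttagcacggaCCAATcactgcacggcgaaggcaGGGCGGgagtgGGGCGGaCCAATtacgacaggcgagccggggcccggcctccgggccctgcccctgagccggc
Cyp51, chr5:4104698-4104947, minus strand: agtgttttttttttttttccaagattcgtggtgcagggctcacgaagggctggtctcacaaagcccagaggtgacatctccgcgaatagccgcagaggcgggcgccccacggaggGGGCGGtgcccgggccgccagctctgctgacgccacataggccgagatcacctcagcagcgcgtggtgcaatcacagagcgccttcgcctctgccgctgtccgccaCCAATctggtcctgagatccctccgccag
Srebf1, chr11:60210472-60210721, minus strand: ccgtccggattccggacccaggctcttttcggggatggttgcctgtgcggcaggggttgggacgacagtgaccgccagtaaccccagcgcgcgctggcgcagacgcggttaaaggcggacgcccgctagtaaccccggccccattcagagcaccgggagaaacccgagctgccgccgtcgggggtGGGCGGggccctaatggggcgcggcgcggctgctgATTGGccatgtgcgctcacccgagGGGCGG
No matches overlap in these 5 sequences. Of the 33 listed genes, 26 had a promoter in the table, which holds 32851 windows of 27025 genes (250 bases before to 50 after the start). CCAAT, on either strand, stood in at least 1 window of 21 of the 26 genes (80.8%), against 41.1% of all genes in the table. GGGCGG, on either strand, likewise stood in 21 of 26 (80.8%), against 38.2% of all genes. The letters TCACNCCAC, 1 form of the sterol regulatory element, were found on either strand in 1 of the 26, Hmgcs1, against 1.44% of all genes. Matches are letters only and do not show binding.

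The level of the genes was first set out per length of transcript, in the authors' FPKM (fragments scaled to transcript length and library size). The highest was Scd2, the desaturase typical of brain, at 512.5 ± 13.9 FPKM in SCI Tam, 449.6 ± 19.0 in SCI Veh and 509.5 ± 42.3 in uninjured libraries (SD, n = 4 each). Scd1, a second desaturase, followed at 138 ± 8.71, 117 ± 9.58 and 143 ± 19.5 FPKM in the same groups. Acly, which supplies cytosolic acetyl-CoA, stood at 96.7, 87.7 and 120.2 FPKM, and Fasn, the fatty acid synthase, at 58.0, 72.9 and 74.0 FPKM. Of the sterol enzymes the highest was Msmo1, a sterol methyl oxidase, at 48.1 ± 8.20 FPKM in SCI Tam, 34.4 ± 5.43 in SCI Veh and 65.7 ± 17.4 in uninjured libraries. At the low end, Fdps, which makes farnesyl diphosphate, stood at 7.94, 5.59 and 9.29 FPKM, and Stard4, a sterol carrier, at 8.96, 5.95 and 12.7 FPKM. In each group Scd2, Scd1, Acly, Fads1, Fads2 and Fasn had a higher mean FPKM than any of the sterol enzymes, whereas Elovl6 and Acaca lay within their range.

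The first comparison asks how injury with vehicle changed these genes relative to uninjured cord. Of the 31 measured genes, 22 were lower in SCI Veh lesions and 1, Srebf1, was higher, by edgeR's quasi-likelihood test with Benjamini-Hochberg adjustment over all 16473 genes at 0.05. Over all genes tested, 24.1% were lower and 26.7% higher, so that 50.8% passed in either direction. The median log2 change of the 31 genes was -0.48, against 0.02 over all genes. In 21 of them every SCI Veh library lay below every uninjured library, which was so for 24.7% of all genes, and in 1 every SCI Veh library lay above, which was so for 26.3%. Without the 5 muscle-high libraries, which leaves 1 SCI Veh library, the median log2 change was -0.50. Most calls were lost in that fit, among these genes as among all genes. In bulk tissue, fewer cells of a type and less RNA per cell cannot be told apart. The labels give separate mice, so the tests measure the spread between animals.

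**Figure D1:**
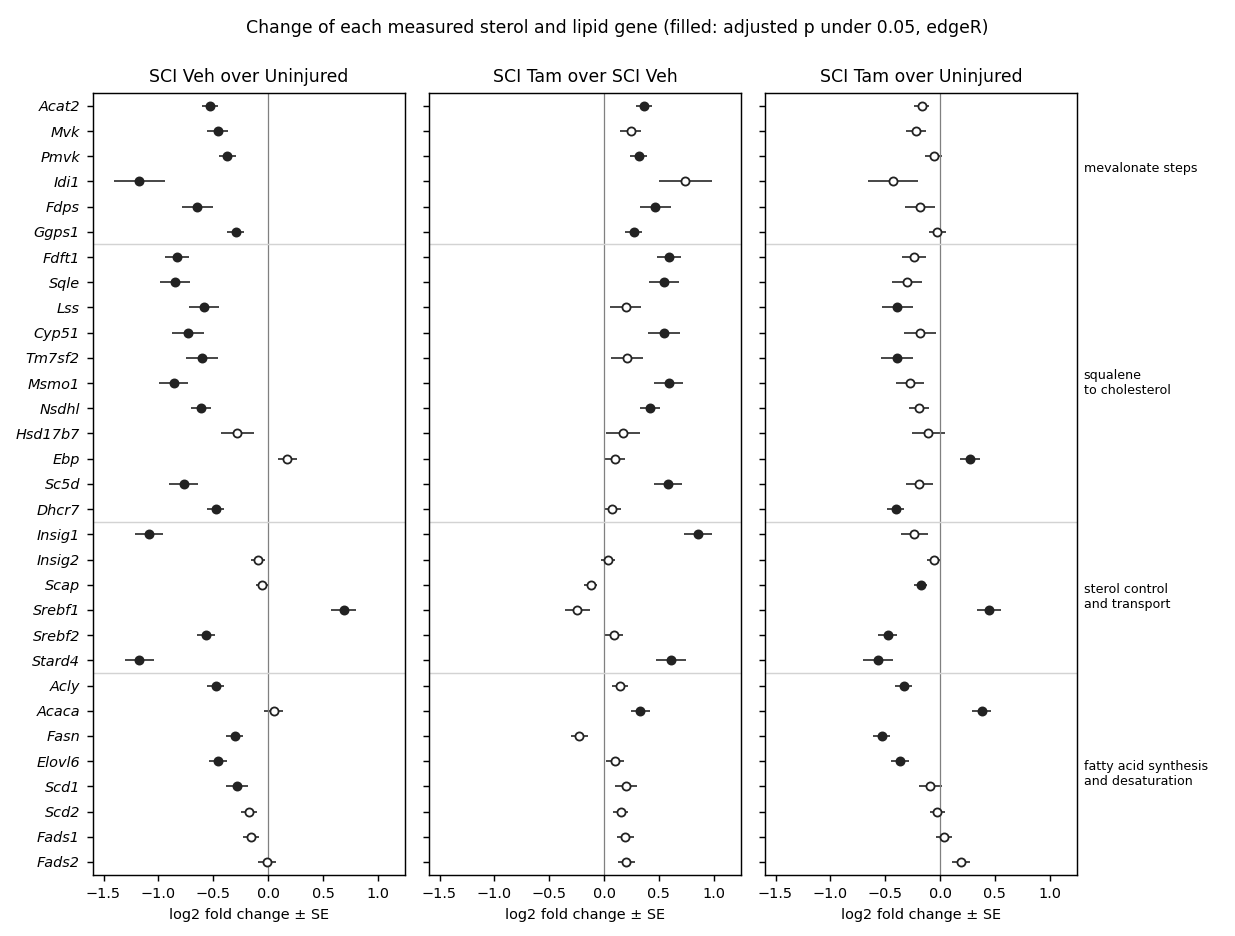
Fitted log2 fold change ± SE of the 31 measured genes in pathway order, for SCI Veh over uninjured, SCI Tam over SCI Veh and SCI Tam over uninjured; filled points passed the test (adjusted p under 0.05, edgeR). In the left panel 22 filled points lie below 0 and 1 above it, and in the middle panel all 13 filled points lie above 0.

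All 6 measured mevalonate genes fell in SCI Veh lesions (100%, against 24.1% of all genes), with a median log2 change of -0.50. Idi1, which interconverts the isoprene units, stood at 5.13, 9.88, 5.42 and 6.27 CPM in SCI Veh and 15.9, 11.5, 11.9 and 20.4 CPM in uninjured libraries, with no overlap. Its log2 change was -1.17 ± 0.24 (SE, adjusted p = 0.00119). Fdps stood at 6.41, 7.65, 5.33 and 7.13 CPM in SCI Veh and 9.87, 10.4, 9.49 and 11.7 CPM in uninjured libraries. The groups did not overlap for Fdps either, and its log2 change was -0.65 (adjusted p = 0.00195). Acat2, which condenses acetyl-CoA, fell by 0.53 on the log2 scale, the kinases Mvk and Pmvk by 0.46 and 0.37, and Ggps1, which leads to geranylgeranyl diphosphate, by 0.29. Mvd, outside the 31, stood at 18.6, 22.6, 14.8 and 18.0 CPM in SCI Veh and 30.8, 31.7, 29.3 and 42.2 CPM in uninjured libraries, a log2 change of -0.86 (adjusted p = 0.00031).

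Of the 11 genes from squalene to cholesterol, 9 fell in SCI Veh lesions (81.8%) and none rose, with a median log2 change of -0.61. Of all genes, 24.1% fell and 26.7% rose. At an unadjusted p under 0.05 the count of rises was also 0, and DESeq2 called 23 falls and 1 rise over the 31 genes. Sqle, the squalene epoxidase and a rate-limiting step, stood at 67.5, 74.8, 56.8 and 79.6 CPM in SCI Veh and 119.5, 116, 109 and 157 CPM in uninjured libraries. Every SCI Veh library was below every uninjured one, and the log2 change was -0.85 ± 0.14 (SE, adjusted p = 0.000272). Msmo1 stood at 62.6, 73.7, 56.7 and 73.4 CPM in SCI Veh and 122, 106, 108 and 149 CPM in uninjured libraries, again without overlap (log2 change -0.86, adjusted p = 0.000158). Fdft1, the squalene synthase, fell by 0.83 on the log2 scale, Sc5d, a sterol desaturase, by 0.77 and Cyp51, the lanosterol demethylase, by 0.73. Smaller falls were those of Nsdhl, a sterol dehydrogenase (-0.61), the sterol reductase Tm7sf2 (-0.60) and the lanosterol synthase Lss (-0.59). Dhcr7, the reductase of the last step to cholesterol, stood at 43.0, 44.8, 41.1 and 48.6 CPM in SCI Veh and 59.2, 61.2, 57.8 and 69.3 CPM in uninjured libraries (log2 change -0.48, adjusted p = 0.000289). Hsd17b7, a sterol ketone reductase, had a log2 change of -0.28 (adjusted p = 0.14) and Ebp, a sterol isomerase, one of 0.17 (adjusted p = 0.119), and neither passed the test.

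Among the 6 genes of sterol control and transport, 3 fell (50%, against 24.1% of all genes), 1 rose (16.7%, against 26.7%) and 2 did not pass. Insig1, the INSIG form that is itself an SREBP target, stood at 74.0, 83.2, 61.2 and 72.3 CPM in SCI Veh and 145, 147, 142 and 183 CPM in uninjured libraries. Its groups lay far apart, with a log2 change of -1.09 ± 0.13 (SE, adjusted p = 2.6e-05). Insig2, the form that is not driven by sterol loss in the same way, stood at 65.3, 59.4, 60.4 and 66.5 CPM in SCI Veh and 67.8, 67.2, 71.3 and 62.6 CPM in uninjured libraries. These groups overlapped, and the log2 change of -0.10 did not pass (adjusted p = 0.236). Stard4 stood at 30.4, 34.7, 26.1 and 42.0 CPM in SCI Veh and 71.2, 72.2, 70.5 and 86.7 CPM in uninjured libraries, without overlap, a log2 change of -1.17 ± 0.14 (SE, adjusted p = 2.5e-05).

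The transcription factors moved in opposite directions in SCI Veh lesions. Srebf2, the SREBP gene tied most to sterol synthesis, stood at 181, 206, 160 and 188 CPM in SCI Veh and 281, 260.4, 257 and 290.5 CPM in uninjured libraries. It was lower in each of the 4 lesions, with a log2 change of -0.57 ± 0.08 (SE, adjusted p = 0.00013). Srebf1, the SREBP gene tied most to fatty acid synthesis, stood at 211, 192, 242 and 171 CPM in SCI Veh and 137, 127, 120.0 and 122 CPM in uninjured libraries. It was higher in each lesion, with a log2 change of 0.69 ± 0.11 (SE, adjusted p = 0.000266). Scap had a log2 change of -0.05 (adjusted p = 0.486).

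**Figure D2:**
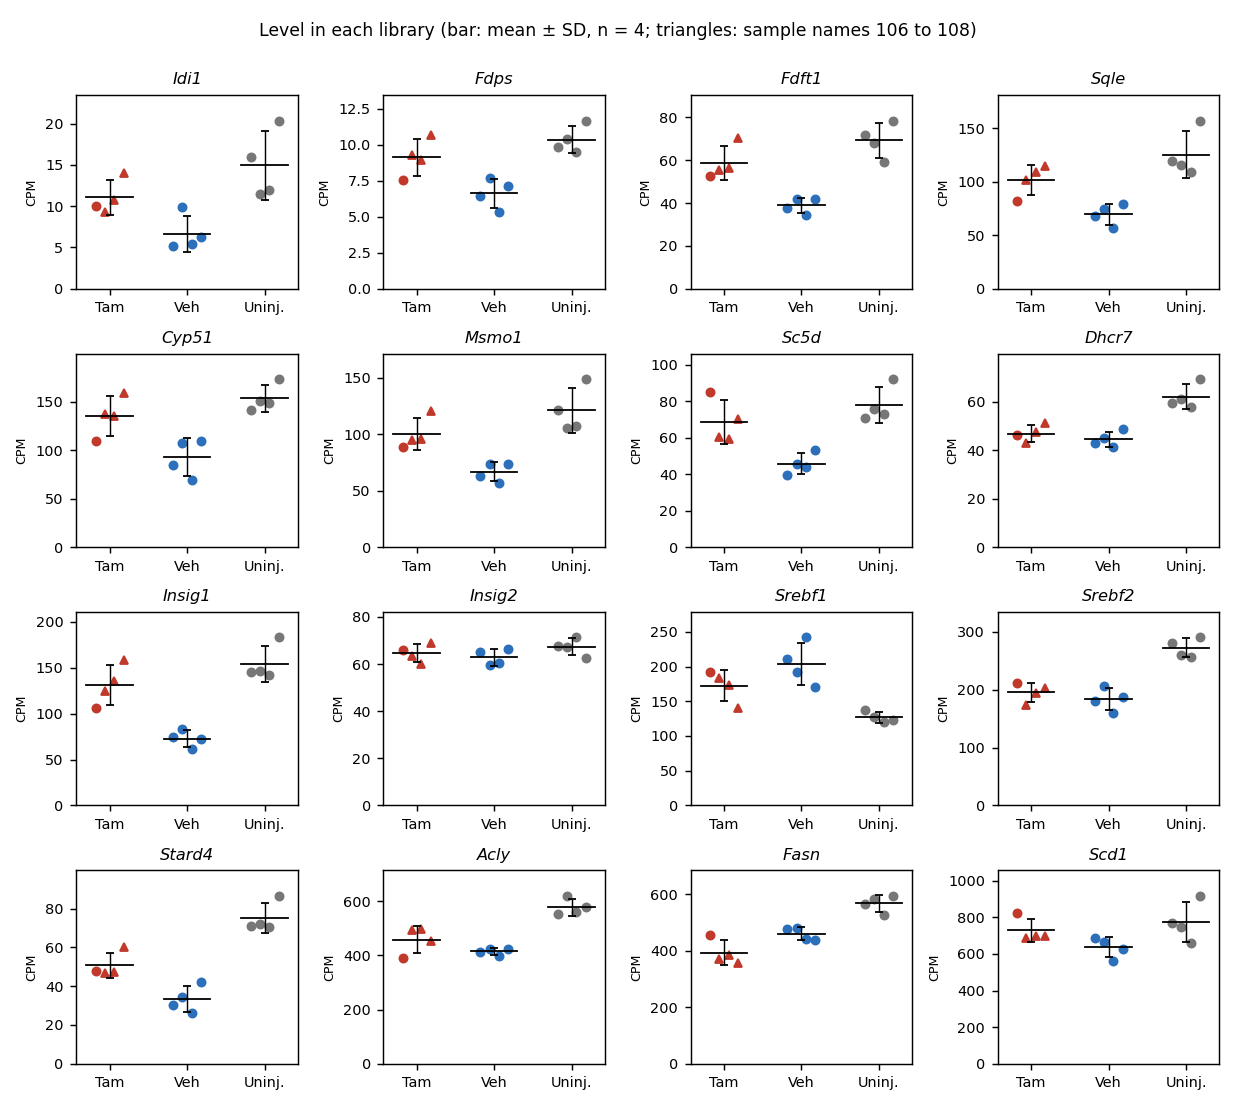
Level of 16 genes in each library, in TMM-normalised CPM from 0, with the mean ± SD of 4 libraries per group; triangles mark the SCI Tam libraries with sample names 106 to 108. Insig1, Stard4 and Sqle are lowest in SCI Veh without overlap with either other group, Srebf1 is lowest in uninjured libraries, and Insig2 overlaps in all groups.

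Fatty acid genes fell less after injury. Of 8, 4 fell in SCI Veh lesions (50%) and none rose (0 also at an unadjusted p under 0.05), with a median log2 change of -0.23. Of all genes, 24.1% fell and 26.7% rose. Acly stood at 411, 422, 399.5 and 425 CPM in SCI Veh and 553, 620.4, 559 and 578 CPM in uninjured libraries, without overlap (log2 change -0.48, adjusted p = 0.000216). Fasn stood at 478, 482, 444 and 438 CPM in SCI Veh and 565, 585, 529 and 596 CPM in uninjured libraries, also without overlap (log2 change -0.30, adjusted p = 0.0054). From the authors' FPKM, with limma on log2(FPKM + 1), the Fasn change was -0.03 (adjusted p = 0.814), so that call rests on the counts. Elovl6, an elongase, fell by 0.46 on the log2 scale.

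Of the 4 desaturase genes, Scd1 alone passed the test in SCI Veh lesions, a share near the 24.1% of all genes that were lower. Scd1 stood at 689, 663, 564 and 627 CPM in SCI Veh and 771, 748, 659 and 918 CPM in uninjured libraries; the groups overlapped and the log2 change was -0.28 (adjusted p = 0.0322). That call was lost without uninjured library 376 or 467 or SCI Veh library 429 or 457 (adjusted p = 0.0593, 0.109, 0.0762 and 0.0534), and the other 22 of the 23 calls of this comparison were kept whichever library was left out. Scd2 stood at 2611, 2797, 2644 and 2550 CPM in SCI Veh and 3181, 2798, 2765 and 3225 CPM in uninjured libraries (log2 change -0.17, adjusted p = 0.0515). Fads1 and Fads2, which desaturate polyunsaturated fatty acids, had log2 changes of -0.16 and -0.01, and Acaca, the acetyl-CoA carboxylase, one of 0.05, and none passed the test.

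The second comparison asks how tamoxifen lesions differed from vehicle lesions. Of the 31 genes, 13 were higher in SCI Tam than in SCI Veh lesions and 0 lower (edgeR, Benjamini-Hochberg over all genes), with 2 lower at an unadjusted p under 0.05. DESeq2 called 14 higher and 1 lower (Fasn), and limma on log2(FPKM + 1) called 10 higher and 2 lower (Fasn and Srebf1). Over all genes tested by edgeR, 7.79% were higher and 8.33% lower, 16.1% in either direction. The median log2 change of the 31 genes was 0.21, against 0.00 over all genes. In 12 of the 31, every SCI Tam library lay above every SCI Veh library, which was so for 7.68% of all genes, and in 0 did every one lie below, which was so for 8.77%. This comparison and the first share the vehicle libraries, so a gene that happened to be low in them would look lower in the first and higher in the second.

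**Figure D3:**
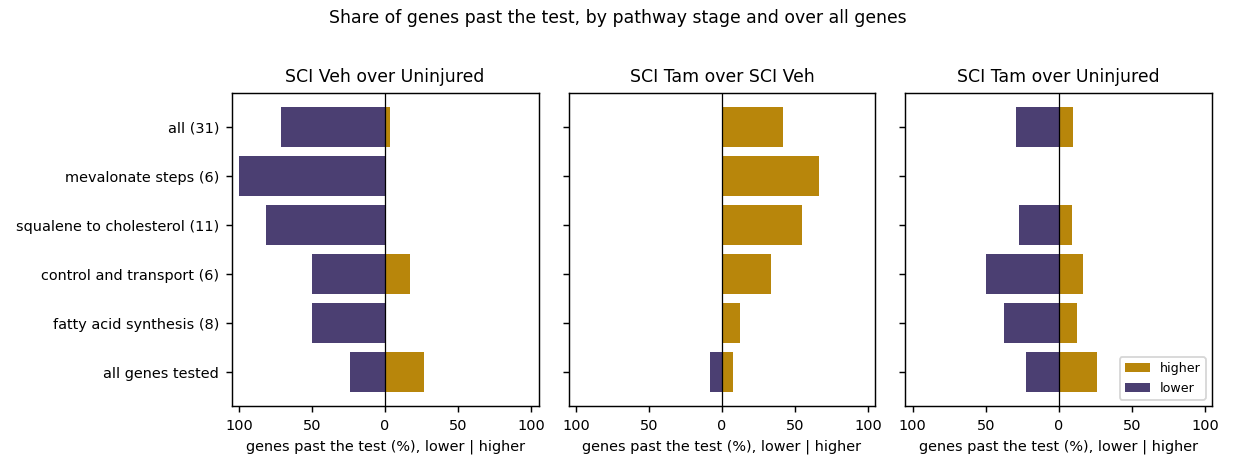
Share of genes past the test (percent; bars to the left lower, to the right higher) for the 31 genes, for each pathway stage and for all genes tested, in each comparison. After injury with vehicle the mevalonate bar reaches 100% lower against 24.1% of all genes, and for SCI Tam over SCI Veh it reaches 66.7% higher against 7.79%.

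Insig1 had the largest fitted change of the 31 in this comparison. It stood at 106, 125, 135 and 158 CPM in SCI Tam and 74.0, 83.2, 61.2 and 72.3 CPM in SCI Veh libraries. Every SCI Tam library was above every SCI Veh one, and the log2 change was 0.85 ± 0.13 (SE, adjusted p = 0.00226). Stard4 stood at 48.1, 47.1, 47.5 and 60.4 CPM in SCI Tam and 30.4, 34.7, 26.1 and 42.0 CPM in SCI Veh libraries, without overlap (log2 change 0.61, adjusted p = 0.013). The other control genes did not pass: Srebf2 stood at 212, 174, 194 and 203 CPM in SCI Tam and 181, 206, 160 and 188 CPM in SCI Veh libraries (log2 change 0.09, adjusted p = 0.477). Srebf1 stood at 192, 184, 174 and 140.3 CPM in SCI Tam and 211, 192, 242 and 171 CPM in SCI Veh libraries (log2 change -0.24, adjusted p = 0.146). Both overlapped between the groups, as did Insig2, at 66.0, 63.3, 59.9 and 69.0 CPM in SCI Tam and 65.3, 59.4, 60.4 and 66.5 CPM in SCI Veh libraries (log2 change 0.04), while Scap had a log2 change of -0.12 (adjusted p = 0.17).

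Of the 6 mevalonate genes, 4 rose in SCI Tam over SCI Veh lesions (66.7%, against 7.79% of all genes). They were Acat2 (log2 change 0.36), Fdps (0.46), Pmvk (0.31) and Ggps1 (0.27). Fdps stood at 7.55, 9.32, 8.93 and 10.7 CPM in SCI Tam and 6.41, 7.65, 5.33 and 7.13 CPM in SCI Veh libraries, with 1 SCI Tam library inside the vehicle range. Idi1 stood at 10.1, 9.32, 10.8 and 14.1 CPM in SCI Tam and 5.13, 9.88, 5.42 and 6.27 CPM in SCI Veh libraries. Its log2 change of 0.74 ± 0.24 (SE) missed the threshold (edgeR adjusted p = 0.0517). Vehicle library 428 was the highest of its group, and without it the Idi1 change was 0.98 (edgeR adjusted p = 0.0163). Leaving out each library in turn gave Idi1 changes of 0.60 to 0.98, with edgeR adjusted p-values of up to 0.152. Mvk had a log2 change of 0.24 (adjusted p = 0.0903) and Mvd, outside the 31, one of 0.43 (adjusted p = 0.0605).

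Of the 11 genes from squalene to cholesterol, 6 rose in SCI Tam over SCI Veh lesions (54.5%, against 7.79% of all genes). Sqle stood at 81.8, 101, 109 and 115 CPM in SCI Tam and 67.5, 74.8, 56.8 and 79.6 CPM in SCI Veh libraries, without overlap (log2 change 0.55 ± 0.14 SE, adjusted p = 0.0209). The groups came nearest at SCI Tam library 452 and SCI Veh library 457. Fdft1 stood at 52.9, 55.3, 56.2 and 70.5 CPM in SCI Tam and 37.6, 41.7, 34.6 and 41.8 CPM in SCI Veh libraries (log2 change 0.59, adjusted p = 0.00558), with no overlap. Msmo1 (0.59), Sc5d (0.58), Cyp51 (0.55) and Nsdhl (0.42) also rose on the log2 scale. Dhcr7, at 46.0, 42.8, 47.3 and 51.1 CPM in SCI Tam and 43.0, 44.8, 41.1 and 48.6 CPM in SCI Veh libraries, overlapped (log2 change 0.08, adjusted p = 0.528). Lss, Tm7sf2, Hsd17b7 and Ebp had log2 changes of 0.20, 0.21, 0.17 and 0.10 and did not pass.

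Of the 8 fatty acid genes, 1 (12.5%), Acaca, passed the test in SCI Tam over SCI Veh lesions as higher, against 7.79% of all genes. Its log2 change was 0.33 (adjusted p = 0.0252), with the opposite sign in FPKM. Fasn stood at 457, 372, 387 and 357 CPM in SCI Tam and 478, 482, 444 and 438 CPM in SCI Veh libraries (log2 change -0.23, adjusted p = 0.0618). Scd1 stood at 825, 689.5, 699.8 and 699 CPM in SCI Tam and 689, 663, 564 and 627 CPM in SCI Veh libraries, and the lowest SCI Tam library was level with the highest SCI Veh one (log2 change 0.20, adjusted p = 0.192). Acly stood at 390.4, 494, 497 and 452 CPM in SCI Tam and 411, 422, 399.5 and 425 CPM in SCI Veh libraries, and Scd2 at 3145, 2903, 2933 and 2787 CPM in SCI Tam and 2611, 2797, 2644 and 2550 CPM in SCI Veh libraries. Both overlapped, with log2 changes of 0.15 each (adjusted p = 0.193 and 0.15). Elovl6, Fads1 and Fads2 had log2 changes of 0.10, 0.19 and 0.20, and none passed.

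The count of 13 depended on which libraries entered and on the sample name series. Fitted without the uninjured libraries, 9 of the 31 genes were higher and 0 lower, against 4.01% of all genes higher and 5.37% lower. Leaving out each library in turn gave 7 to 18 calls, the fewest without SCI Tam library 513 and the most (17 higher and 1 lower) without SCI Tam library 452. Of the 13, 7 (Acat2, Fdft1, Insig1, Msmo1, Nsdhl, Sc5d and Stard4) were kept every time. The calls of Acaca, Cyp51, Fdps, Ggps1, Pmvk and Sqle were lost without library 513 (adjusted p = 0.0799, 0.0633, 0.0924, 0.103, 0.0606 and 0.0527), and all but Pmvk were also lost without 1 or more other libraries. With a term for the sample name series, which leaves SCI Tam library 452 as the only one set against the 4 SCI Veh libraries, 1 gene passed, Sc5d (log2 change 0.89, adjusted p = 0.0427), and 0.103% of all genes were called higher. The median log2 change of the 31 genes was 0.21 in that fit as well, but each of the called genes other than Sc5d had a smaller one. With the series term Acaca had a log2 change of 0.04, Ggps1 0.12, Fdps 0.19, Acat2 0.22, Sqle and Cyp51 0.23 each, and Insig1 0.55, all more than 1.5 times smaller than without it. Pmvk (0.23), Nsdhl (0.30), Msmo1 (0.41), Fdft1 (0.44) and Stard4 (0.53) had changes nearer to those without it, and none of these 12 passed. In library 452 itself, 19 of the 31 genes stood above every SCI Veh library and 1 below every one, which was so for 26.8% and 26.6% of all genes tested. In the same library 22 of the 31 stood below every uninjured library, which was so for 32.4% of all genes tested.

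Sex and muscle also ran with the groups, and their part in the SCI Tam to SCI Veh difference was not tested apart from these fits. With a term for sex, 14 of the 31 genes were higher and 0 lower (1 lower at an unadjusted p under 0.05). Of all genes, 2.44% were higher and 3.56% lower in that fit, and the median log2 change of the 31 was 0.40. The sex term rests on SCI Veh library 429, the only female of its group, and uninjured library 467, the only male of its group. Of all libraries, 429 had the lowest mean log2 level of the 31 genes (6.04) and 467 the highest (6.75). A shift of the median with that term therefore cannot be told apart from the levels of 429 and 467. With the 8 female libraries alone, a setting chosen after seeing the data that leaves 1 SCI Veh library, the median was 0.33, and Insig1 and Stard4 passed as higher, against 0.0853% of all genes. Without the 5 muscle-high libraries, again 1 SCI Veh library, the median was 0.21. Calls were lost in that fit, among these genes as among all genes.

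The third comparison sets tamoxifen lesions against uninjured cord. Of the 31 genes, 9 were lower and 3 higher in SCI Tam lesions (edgeR, Benjamini-Hochberg over all genes), against 22.7% of all genes lower and 26.3% higher, 48.9% in either direction. The share of the 31 that were lower, 29.0%, was near the share over all genes. Their median log2 change was -0.19, against 0.01 over all genes. In 8 of them every SCI Tam library lay below every uninjured library, which was so for 19.7% of all genes, and in 3 every one lay above, which was so for 21.4%. Both comparisons with the uninjured libraries share those 4 libraries.

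No mevalonate gene passed this test in either direction (0 of 6, with 2 lower and 0 higher at an unadjusted p under 0.05). Of all genes, 48.9% passed in either direction. With DESeq2 size factors, edgeR did call Acat2 (-0.18, adjusted p = 0.0465) and Mvk (-0.23, adjusted p = 0.0488) lower. DESeq2's Wald test also called Acat2 lower (-0.18, adjusted p = 0.0452). Idi1, at 10.1, 9.32, 10.8 and 14.1 CPM in SCI Tam and 15.9, 11.5, 11.9 and 20.4 CPM in uninjured libraries, had a log2 change of -0.43 (adjusted p = 0.133). Sqle, at 81.8, 101, 109 and 115 CPM in SCI Tam and 119.5, 116, 109 and 157 CPM in uninjured libraries, had one of -0.30 (adjusted p = 0.0846). Insig1, at 106, 125, 135 and 158 CPM in SCI Tam and 145, 147, 142 and 183 CPM in uninjured libraries, had one of -0.23 (adjusted p = 0.135). All 3 overlapped between SCI Tam and uninjured libraries. Other settings did call some of these genes lower: on log2(FPKM + 1) Ggps1 (-0.26, adjusted p = 0.0158, limma) and Insig1 (-0.36, adjusted p = 0.0175, limma), without SCI Tam library 564 Insig1 (-0.34, adjusted p = 0.0361, edgeR), and without the muscle-high libraries Idi1 (-0.74, adjusted p = 0.0413, edgeR).

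The genes lower in SCI Tam lesions than in uninjured cord were Stard4, Fasn, Srebf2, Dhcr7, Tm7sf2, Lss, Elovl6, Acly and Scap. Stard4 stood at 48.1, 47.1, 47.5 and 60.4 CPM in SCI Tam and 71.2, 72.2, 70.5 and 86.7 CPM in uninjured libraries, without overlap (log2 change -0.57, adjusted p = 0.00387). Srebf2 stood at 212, 174, 194 and 203 CPM in SCI Tam and 281, 260.4, 257 and 290.5 CPM in uninjured libraries (log2 change -0.48, adjusted p = 0.000602), and Dhcr7 had a log2 change of -0.40 (adjusted p = 0.00121). Fasn, at 457, 372, 387 and 357 CPM in SCI Tam and 565, 585, 529 and 596 CPM in uninjured libraries, had the largest fall among the fatty acid genes (log2 change -0.53, adjusted p = 0.000201). The calls of Scap, Lss and Tm7sf2 were lost without SCI Tam library 513 or 564, that of Scap also without uninjured library 377 or 385, that of Tm7sf2 without 377, and those of Lss and Tm7sf2 without 467, where their changes were -0.21 and -0.23. With the sample name series term, SCI Tam library 452 alone was set against the uninjured libraries. The median log2 change of the 31 genes was then -0.31. Fewer genes passed in that fit, among these as among all genes.

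The 3 genes higher in SCI Tam lesions than in uninjured cord were Srebf1, Acaca and Ebp. Srebf1 stood at 192, 184, 174 and 140.3 CPM in SCI Tam and 137, 127, 120.0 and 122 CPM in uninjured libraries, without overlap but with library 564 close to the uninjured range (log2 change 0.45, adjusted p = 0.00568). Ebp stood at 26.0, 28.9, 28.4 and 27.1 CPM in SCI Tam and 21.6, 22.0, 21.2 and 26.6 CPM in uninjured libraries, where 467 reached the SCI Tam range (log2 change 0.27, adjusted p = 0.0221). That call was lost without uninjured library 376, 377 or 385 or SCI Tam library 513 or 549 (adjusted p = 0.0544 to 0.0705). Acaca stood at 79.2, 107, 107 and 93.5 CPM in SCI Tam, 79.0, 75.4, 77.3 and 76.6 CPM in SCI Veh and 67.3, 75.0, 77.3 and 78.0 CPM in uninjured libraries. It was highest in the 3 SCI Tam libraries with sample names 106 to 108.

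The Acaca rise was not seen in the authors' FPKM. There Acaca stood at 19.6, 20.7, 15.9 and 12.2 FPKM in SCI Tam, 15.3, 18.6, 19.5 and 17.3 FPKM in SCI Veh and 24.0, 24.2, 23.5 and 24.0 FPKM in uninjured libraries. With limma on log2(FPKM + 1) its log2 change was -0.07 for SCI Tam over SCI Veh (adjusted p = 0.764), -0.49 for SCI Tam over uninjured (adjusted p = 0.0104) and -0.42 for SCI Veh over uninjured (adjusted p = 0.0199). The log2 ratio of its CPM to its FPKM was 0.78 higher in the libraries with sample names 106 to 108 than in the others, the only one of the 31 genes past 0.5, so its direction is not settled by these files. For Insig2 that step was 0.37, for Srebf1 0.34, for Lss 0.26 and for Insig1 0.21. Insig1 averaged 41.2 FPKM in SCI Tam and 26.5 FPKM in SCI Veh libraries. That is a smaller ratio than in CPM, where it averaged 131 in SCI Tam and 72.7 in SCI Veh libraries.

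**Figure D4:**
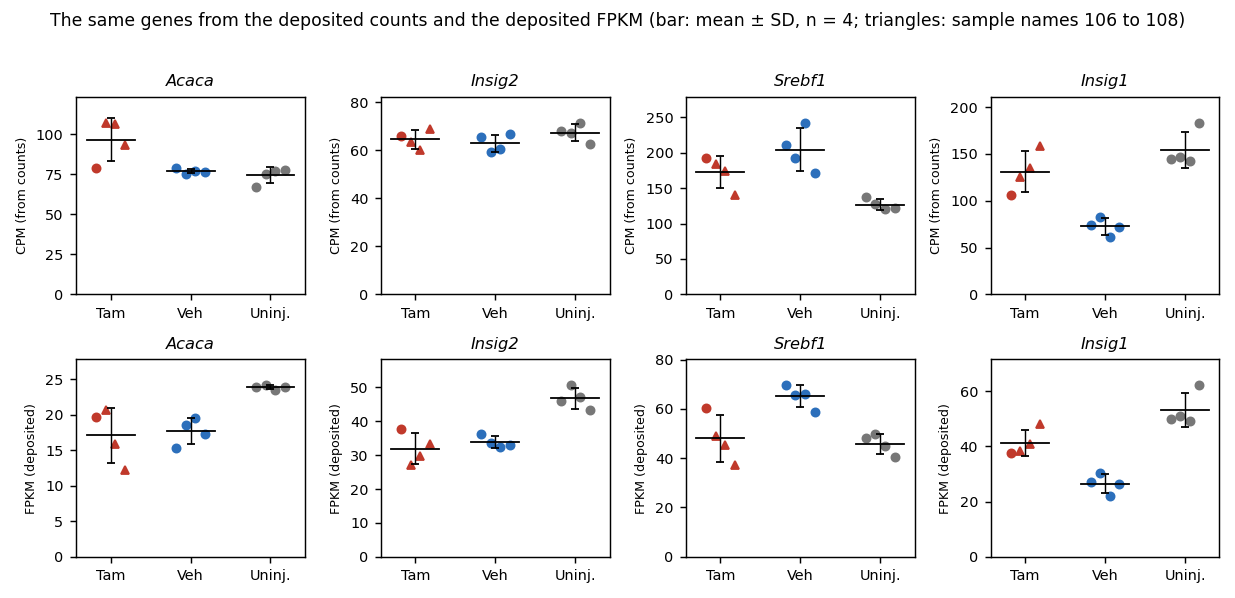
Acaca, Insig2, Srebf1 and Insig1 in each library from the deposited counts (upper row, CPM) and from the authors' FPKM (lower row), with the mean ± SD of 4 libraries per group and triangles for sample names 106 to 108. Acaca is highest in SCI Tam by CPM and highest in uninjured libraries by FPKM, whereas Insig1 is lowest in SCI Veh on both scales.

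Srebf1, Insig2 and Scap differed between the scales as well. In FPKM Srebf1 stood at 60.1, 49.1, 45.4 and 37.4 in SCI Tam, 69.6, 65.7, 66.0 and 58.9 in SCI Veh and 48.2, 49.8, 45.0 and 40.4 in uninjured libraries. The rise in SCI Veh lesions was thus present on both scales, but on log2(FPKM + 1) SCI Tam over uninjured gave 0.05 (adjusted p = 0.764, limma) and SCI Tam over SCI Veh gave -0.45 (adjusted p = 0.0387, limma). Insig2 stood at 37.8, 27.1, 29.7 and 33.2 FPKM in SCI Tam, 36.3, 33.5, 32.3 and 33.1 FPKM in SCI Veh and 45.9, 50.6, 47.1 and 43.3 FPKM in uninjured libraries. On that scale it was lower in SCI Veh than in uninjured libraries by 0.46 (adjusted p = 0.00141, limma), a difference the counts did not show. Scap was likewise lower in SCI Veh than in uninjured libraries on log2(FPKM + 1), by 0.40 (adjusted p = 0.00886, limma), against a log2 change of -0.05 from counts (adjusted p = 0.486, edgeR). Further calls changed with limma on log2(FPKM + 1). For SCI Tam over SCI Veh, Fdps, Ggps1 and Msmo1 were lost (adjusted p = 0.0706, 0.0676 and 0.0941) and Idi1 was gained (0.0256). For SCI Tam over uninjured, Lss, Tm7sf2 and Ebp were lost (0.0822, 0.128 and 0.193), while Ggps1, Fdft1, Insig1, Insig2 and Fads2 were gained.

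The mean level of the genes was lowest in SCI Veh. The mean log2(CPM + 0.5) of the 31 genes ran from 6.36 to 6.47 in SCI Tam, 6.04 to 6.21 in SCI Veh and 6.48 to 6.75 in uninjured libraries, a description of genes chosen with results known. SCI Tam and uninjured libraries nearly touched on that scale, and the summed CPM of the same genes overlapped between them, at 6689 to 7001 CPM in SCI Tam and 6865 to 8071 CPM in uninjured libraries, against 5924 to 6391 CPM in SCI Veh. Uninjured library 467 was the highest of all 12. For the mevalonate genes it ran from 4.55 to 4.85 in SCI Tam, 4.19 to 4.47 in SCI Veh and 4.77 to 5.06 in uninjured libraries. For the genes from squalene to cholesterol it ran from 5.65 to 5.79 in SCI Tam, 5.24 to 5.49 in SCI Veh and 5.78 to 6.21 in uninjured libraries. Both stages overlapped between SCI Tam and uninjured libraries and not between SCI Tam and SCI Veh.

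**Figure D5:**
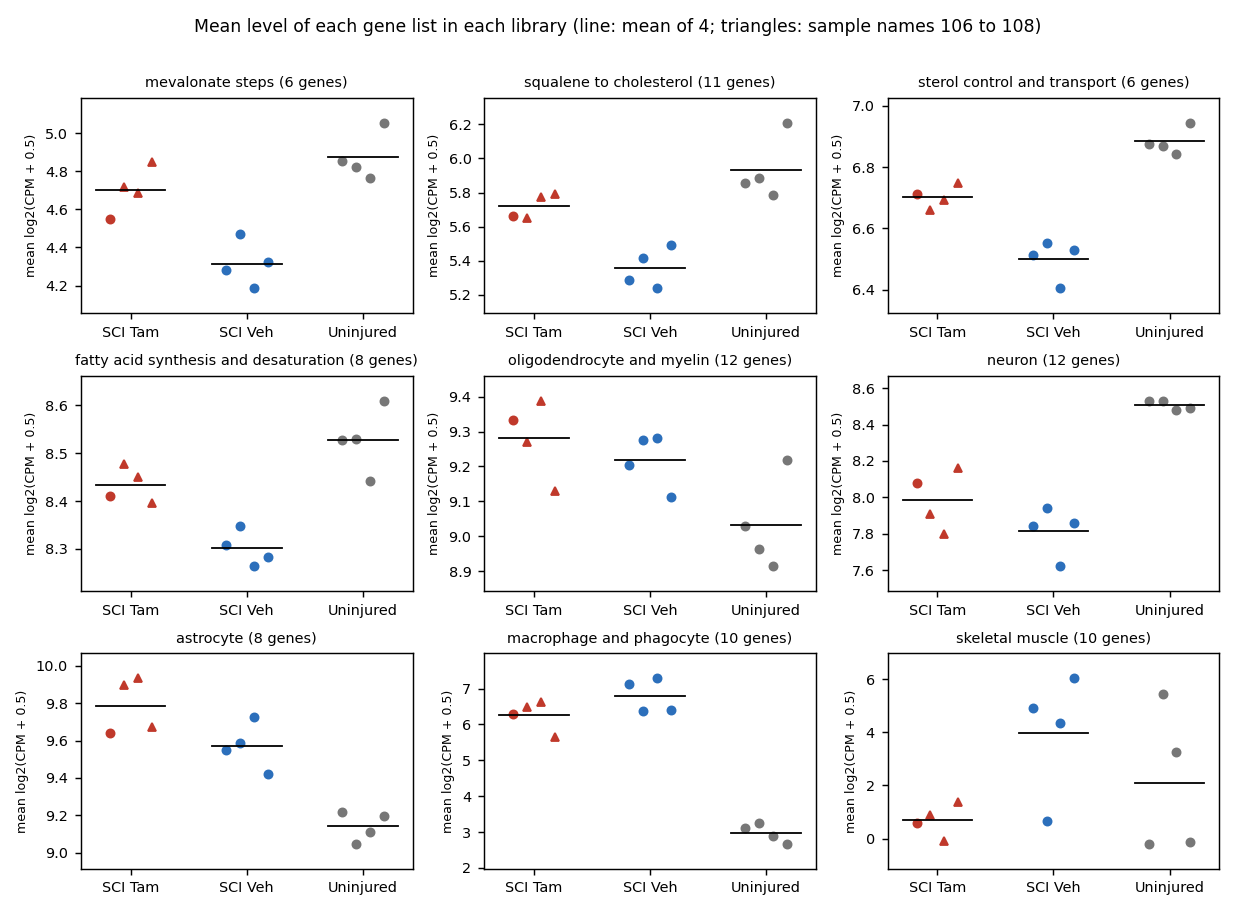
Mean log2(CPM + 0.5) of each gene list in each library, for the 4 pathway stages and for markers of oligodendrocytes, neurons, astrocytes, macrophages and skeletal muscle; lines are group means and triangles mark sample names 106 to 108. The sterol stages are lowest in SCI Veh, whereas the oligodendrocyte and astrocyte lists have their lowest group mean in uninjured libraries.

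Markers of the cell types in the tissue moved beside the sterol genes, and their part in the results was not tested. Over all genes, 24.1% fell and 26.7% rose in SCI Veh against uninjured libraries. In SCI Tam over SCI Veh lesions 8.33% of all genes fell and 7.79% rose. Of 12 neuron markers, all 12 fell in SCI Veh against uninjured libraries (edgeR; median log2 change -0.79), with a mean log2(CPM + 0.5) of 7.80 to 8.16 in SCI Tam, 7.62 to 7.94 in SCI Veh and 8.48 to 8.53 in uninjured libraries. The nuclear protein gene Rbfox3 (-1.04) and the transporter genes Slc32a1 (-1.05) and Slc17a6 (-0.98) fell most clearly. In SCI Tam over SCI Veh lesions 1 of 12 neuron markers, Tubb3, rose (0.21, edgeR adjusted p = 0.036). That share, 8.33%, was near the 7.79% of all genes. The median log2 change of the 12 was 0.22, with 10 positive and 2 negative, beside 0.21 for the 31 sterol and lipid genes. At an unadjusted p under 0.05 (edgeR), 5 of the 12 were higher and 0 lower. Of 12 oligodendrocyte and myelin markers none fell in SCI Veh against uninjured libraries (0 also at an unadjusted p under 0.05). The 4 that rose (33.3%, against 26.7% of all genes) were Cldn11 (0.58), Mog (0.27), Mag (0.22) and Cnp (0.22). The mean log2(CPM + 0.5) of the 12 ran from 9.13 to 9.39 in SCI Tam, 9.11 to 9.28 in SCI Veh and 8.91 to 9.22 in uninjured libraries. In SCI Tam over SCI Veh lesions 1 of 12, Ermn, rose (0.25, edgeR adjusted p = 0.0413), again 8.33% against 7.79% of all genes. The median log2 change of these 12 was 0.08, with 7 positive and 5 negative.

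Astrocyte markers rose for 4 of 8 (50%, against 26.7% of all genes) in SCI Veh against uninjured libraries, Gfap (1.26), Aqp4 (1.01), Aldh1l1 (0.56) and Slc1a3 (0.49). In SCI Tam over SCI Veh lesions 2 of 8 rose (25%, against 7.79% of all genes), Gja1 (0.35) and Aldoc (0.33). The median log2 change of the 8 was 0.20, and all 8 were positive. All 10 macrophage and phagocyte markers rose in SCI Veh against uninjured libraries (median log2 change 3.80), among them Lgals3 (4.68), Itgax (6.54), Ctss (2.78) and Trem2 (3.74), which had the smallest p-values. In SCI Tam over SCI Veh lesions 1 of 10 (10%), Itgax (-1.51), fell, near the 8.33% of all genes. The summed level of the macrophage and phagocyte list ran from 902 to 1917 CPM in SCI Tam, 1340 to 2655 CPM in SCI Veh and 194 to 244 CPM in uninjured libraries. All 8 fibroblast and scar markers rose in SCI Veh against uninjured libraries. In SCI Tam over SCI Veh lesions 7 fell (87.5%, against 8.33% of all genes), with Postn (-4.33) and Col1a2 (-3.02) among them. The sum of all 8 ran from 590 to 1026 CPM in SCI Tam, 2844 to 8253 CPM in SCI Veh and 202 to 562 CPM in uninjured libraries.

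Markers of peripheral and non-neural tissue passed the test in SCI Veh against uninjured libraries about as often as all genes, of which 26.7% were higher. In SCI Tam over SCI Veh lesions 8.33% of all genes were lower. Schwann cell markers rose for 2 of 6 in SCI Veh against uninjured libraries, Egr2 (2.45) and Pmp22 (0.71), and 1, Egr2 (-1.28), fell in SCI Tam over SCI Veh lesions. Skeletal muscle markers rose for 3 of 10 in SCI Veh against uninjured libraries (Mb, Myh2 and Myh1), and the same 3 fell in SCI Tam over SCI Veh lesions; their sum ran from 5.81 to 27.1 CPM in SCI Tam, 12.96 to 752 CPM in SCI Veh and 4.71 to 989 CPM in uninjured libraries. Of 4 fat cell markers, 1 rose (Cfd, 2.27) in SCI Veh against uninjured libraries and 3 fell in SCI Tam over SCI Veh lesions, from sums of at most 1.56 CPM in SCI Tam, 19.6 CPM in SCI Veh and 7.12 CPM in uninjured libraries.

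Genes that export, store or oxidise sterol mostly rose after injury. Of 18 genes of sterol efflux, storage and oxidation, 10 rose (55.6%) and 2 fell (11.1%) in SCI Veh against uninjured libraries, with a median log2 change of 0.48. Of all genes, 26.7% rose and 24.1% fell. Abca1, the exporter driven by LXR receptors, averaged 295 ± 87.5 CPM in SCI Tam, 436 ± 173 CPM in SCI Veh and 71.7 ± 5.09 CPM in uninjured libraries (SD, n = 4 each), a log2 change of 2.61 for SCI Veh over uninjured (edgeR adjusted p = 1.24e-05). Mylip, an LXR target that marks lipoprotein receptors for breakdown, averaged 31.7, 49.0 and 14.3 CPM in the same groups (1.78), and Npc2, which moves cholesterol out of lysosomes, had a log2 change of 1.12. Ch25h, which makes an oxysterol, averaged 6.32, 8.81 and 0.27 CPM (5.03). In SCI Tam over SCI Veh lesions 3 of 18 fell (16.7%, against 8.33% of all genes), Mylip (-0.63), Osbpl3 (-0.45) and Gramd1a (-0.25). None rose (0 also at an unadjusted p under 0.05), against 7.79% of all genes.

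Lipoprotein uptake genes rose for 6 of 8 (75%) and fell for 1 (12.5%) in SCI Veh against uninjured libraries, with a median log2 change of 1.48. Of all genes, 26.7% rose and 24.1% fell there. The scavenger receptors Msr1 (3.86) and Olr1 (3.92) and the lipase Lpl (3.03) rose and the receptor Lrp8 (-0.40) fell. Lrp1, a broad lipoprotein receptor, averaged 713 ± 169 CPM in SCI Tam, 1142 ± 127 CPM in SCI Veh and 822 ± 67.1 CPM in uninjured libraries. It was the only one of the 8 (12.5%) to fall in SCI Tam over SCI Veh lesions (-0.68, edgeR adjusted p = 0.00934), against 8.33% of all genes.

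Other lipid lists were mixed. In SCI Veh against uninjured libraries 24.1% of all genes fell and 26.7% rose. Of 17 measured genes of further lipid synthesis and its regulators, 4 fell (23.5%) and 5 rose (29.4%) in that comparison, near those shares. Among the 17, Acss2, which makes acetyl-CoA from acetate, fell by 0.53 on the log2 scale, and the phosphatidate phosphatase gene Lpin1 by 0.47 and the acyl-CoA ligase gene Acsl3 by 0.26. Gpam, an acyltransferase of glycerolipid synthesis, rose by 0.92. In SCI Tam over SCI Veh lesions 1 of 17 rose, Me1, the malic enzyme that supplies NADPH (0.77), and 1 fell, Mbtps1, the protease that first cuts SREBPs (-0.23). Each is 5.88%, against 7.79% of all genes higher and 8.33% lower. Of 11 genes of the isoprenoid branches, 1 (9.09%, against 24.1% of all genes), Dhdds, which makes dolichol precursors, fell in SCI Veh against uninjured libraries (-0.32). Of 9 genes of myelin lipid synthesis, Cers2 (0.32), Degs1 (0.28) and Elovl1 (0.35) rose in SCI Veh against uninjured libraries (33.3%, against 26.7% of all genes). None fell (0 also at an unadjusted p under 0.05).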

How the data were processed

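Bulk RNA-seq of 12 spinal cord libraries, 4 mice in each of 3 groups, was read from 2 deposited tables. The authors deposited raw counts for Ensembl genes, and FPKM values, in which fragments are scaled to transcript length and library size. Per the submitters' processing notes, the tools were TopHat, Picard, Cufflinks and HTSeq on mm9; versions, roles and strandedness are not given there or elsewhere in the labels. Overlapping genes on opposite strands therefore cannot be told apart. Symbols came from the FPKM table, and promoters from RefSeq on GRCm38.p6, a later build, so no position was carried between builds.

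The count test was run with edgeR 4.0.16 under R 4.3.3, using filterByExpr (minimum count 10), TMM scaling and 1 quasi-likelihood fit of the 3 group means with 9 residual degrees of freedom, with two-sided p-values adjusted by Benjamini-Hochberg over 16473 genes. Levels are TMM-normalised CPM. Totals ran from 7967970 to 12581324 counts without molecular identifiers, so counting errors cover sampling only. The members, the lists and the rule for named genes (every measured member, with each library's value for those the results turn on and for members against their comparison's direction, and up to 4 genes of smallest p per other list) were chosen with earlier results of these data known. Fdft1 and Msmo1 were also given by library, after their values were seen. The Srebf1 window shown is 1 of its 3 and was chosen for its matches.

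Alternatives were DESeq2 1.42.0 (size factors, Wald test), scaling by library totals, omitting the low-count filter or tightening it (1 CPM in 8 libraries), limma 3.58.1 on log2 FPKM with 1 or 0.1 added, the compared groups alone, terms for sex and sample name series, and leaving out libraries.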

Additional observations from a re-analysis of the deposited data

Results flagged for a closer look

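In 6 of 96 groups of 4 libraries (31 genes and Mvd, 3 groups each), 1 library stood apart from the other 3 by more of the group's whole range than Dixon's critical value for 4 samples allows. Chance flags about 1 in 20 such groups. Stard4 was 60.4 CPM in SCI Tam library 564, against 47.1 to 48.1 CPM in the other SCI Tam libraries, and 86.7 CPM in uninjured library 467, against 70.5 to 72.2 CPM in the other uninjured libraries. Uninjured library 467, the male of its group, was also high for Insig1, at 183 CPM against 142 to 147 CPM, and for Ebp, at 26.6 CPM against 21.2 to 22.0 CPM. Scd1 was 825 CPM in SCI Tam library 452, against 690 to 700 CPM in the other SCI Tam libraries. Fads2 was 135 CPM in uninjured library 385, against 154 CPM in each of the other uninjured libraries.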

How the results depend on the processing

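The total of 23 calls (22 falls and 1 rise) in SCI Veh over uninjured held within 1.5 times under each alternative but 1: without the muscle-high libraries, which leaves 1 SCI Veh library assumed to vary like the others, 1 gene passed (0.103% of all genes were lower), with 16 lower at an unadjusted p under 0.05 and a median of -0.50. The rises numbered 2 with the female libraries alone and without uninjured library 467. Leaving out each library gave 22 to 25 calls and medians of -0.52 to -0.41, and a sex term gave a median of -0.57. For SCI Tam over SCI Veh, 1 gene passed with the sample name series term, 0 without sample names 106 to 108 (7 higher at an unadjusted p under 0.05), 0 without the muscle-high libraries (6 higher) and 2 with the 8 female libraries alone. The median was 0.40 with a sex term and 0.33 with the female libraries. Leaving out each library gave 7 to 18 calls and medians of 0.21 to 0.26. For SCI Tam over uninjured, 3 genes passed with the series term, 2 without sample names 106 to 108 and 6 without the muscle-high libraries, with medians of -0.31, -0.32 and -0.27; limma on FPKM gave medians of -0.25 (1 added) and -0.26 (0.1 added). Leaving out each library gave 8 to 14 calls and medians of -0.24 to -0.14. Acaca turned round on log2(FPKM + 1), at -0.42, -0.069 and -0.49 for SCI Veh over uninjured, SCI Tam over SCI Veh and SCI Tam over uninjured, and on log2(FPKM + 0.1), at -0.44, -0.073 and -0.51; the cause was not tested. A further 43 changes of sign, in 13 genes, had no call in either setting. No paired analysis was possible because the groups share no mouse numbers. Fits with 1 library in a group limit what depth and number can show.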
